A study of Mus musculus with 8 samples.

Results

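Genes that animal cells use to meet osmotic stress and to hold their volume were followed in RNA sequencing of mouse large intestine mesenchymal cells. They are Nfat5, Slc5a3, Akr1b3, Slc6a12, Sgk1, Hspa4l, Lrrc8a, Wnk1 and Stk39, 9 of the 24346 gene symbols that the tables list. They were chosen by symbol and by known role, with earlier results of these data known, and each has 1 row in each of the 8 tables. The libraries were made from cells that, by label, were sorted from the large intestine as CD45-, EpCAM- and CD31- (no leukocytes, epithelium or endothelium), gp38+, PDGFRα high and Ly6C negative. Untreated cells of the genotype Cxcl12 flox/flox, the control, gave 1 library, and untreated cells of the genotype Foxl1cre; Cxcl12 flox/flox gave 1 library, so both genotype libraries carry floxed Cxcl12 and 1 also carries Foxl1cre, by its name a Cre recombinase under Foxl1 control. The timed libraries hold cells of the strain C57BL/6 given taurine (20 mM) together with GABA (1 mM), in 3 replicates at 0 h and another 3 at 6 h. No 6 h library without GABA and taurine was analysed here, so the passage of 6 h and the treatment cannot be told apart. The labels do not say whether the 3 libraries of a time come from separate animals or cultures, so the p-values reflect how these libraries vary, and that variation may be technical. Neither the number of animals per library nor the way the cells were kept for 6 h is stated.

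Cells placed in a hypertonic medium lose water and shrink. The transcription factor Nfat5 (TonEBP) then raises genes that load the cytoplasm with small neutral solutes, the organic osmolytes: Slc5a3 imports myo-inositol, Slc6a12 (BGT1) imports betaine and can also carry GABA, and Akr1b3 (aldose reductase) makes sorbitol. The faster arm works on ions. Wnk1 is a kinase that responds to chloride and cell shrinkage, Stk39 (SPAK) is the kinase that it activates on cation-chloride cotransporters, and Lrrc8a is the required subunit of the anion channel through which swollen cells release chloride and taurine. Taurine is itself an organic osmolyte, taken up by Slc6a6, and the time comparison therefore asks whether these genes differed after 6 h with taurine and GABA.

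The values are FPKM, read fragments scaled by transcript length and by the size of the library, so levels of different genes can be set side by side. Between 14818 and 21006 gene symbols had a value above 0, with 20874 to 21006 in the genotype libraries and 14818 to 14974 in the timed libraries. Cxcl12 stood at 1298 FPKM in the control library, 740 in the Foxl1-Cre library and 860 to 969 in the timed libraries. Pdgfra and Pdpn, which encode PDGFRα and gp38, were present in all 8 libraries, at 152 to 227 and 91.7 to 304 FPKM. Foxl1 stood at 10.2 and 11.6 FPKM in the genotype libraries and at 0.109 to 0.289 FPKM in the timed libraries, near 0. Of the 10 defining markers of the sorted mesenchyme, 6 were at least 2-fold lower in the timed set with no overlap and 2 higher, with a median log2 difference of -2.03, and their summed level was 13587 and 15149 FPKM in the genotype libraries and 2822 to 3075 in the timed ones. Between 0 h and 6 h, 9 of these markers were tested in limma and 0 were called. Yet 6 had an unadjusted p under 0.05, beside 1023 of all 10910 genes, and 6 did not overlap, beside 15.3% of all genes. Their median log2 difference (6 h minus 0 h) was 0.22. Summed over 12 epithelial markers the level was 100.7 FPKM in the control library and 921.5 in the Foxl1-Cre library, against 2.63 to 3.80 at 0 h and 4.83 to 8.09 at 6 h. Krt8, an epithelial keratin, stood at 0.396 ± 0.291 FPKM at 0 h and 2.06 ± 0.285 at 6 h (SD, n = 3). It was called higher at 6 h (adjusted p 0.0319 in limma), a call that held under 3 of 11 alternatives. Krt8 passed the filter of a mean of 1 FPKM only through its 6 h libraries, so the call leans on that choice. With no filter on low values its adjusted p in limma was 0.244. The 10 leukocyte markers summed to 223.0 and 265.7 FPKM in the genotype libraries and to between 1.16 and 10.8 in the timed ones, and the 10 endothelial markers to 67.8 and 44.0 FPKM and to between 9.46 and 17.4. The markers sorted against, Epcam, Ptprc and Pecam1, each stood above 2 FPKM in both genotype libraries and at 0 to 0.480, 0 to 0.216 and 0 to 0.165 FPKM in the timed libraries. These are bulk libraries, in which fewer cells of a type and less RNA per cell cannot be told apart.

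The sequence that Nfat5 binds, the tonicity-responsive enhancer (TonE), was searched for on both strands in RefSeq promoter windows of build GRCm38.p6, each 300 bases long, from 250 before to 50 after a gene's start. Windows were found for 8 of the 9 genes, all but Akr1b3, 17 windows in all. The core TGGAAA, which lies inside every TonE match, was in a window of 3 genes (Slc6a12, Stk39 and Sgk1), and the full TonE consensus of 11 letters in a window of 2, Slc6a12 and Stk39. Over all 32851 windows, 21.4% held the core and 4.96% the TonE consensus, and of 27025 genes 23.9% and 5.74% did. The 2 TonE matches are printed because they are the places in these windows where the letters meet the Nfat5 consensus, with the match in capitals. The Slc6a12 stretch is chr6:121342469-121342539 on the plus strand, with the match 75 to 65 bases before 121342574, the first of 5 RefSeq starts, and beginning 577 bases before the GENCODE start of the gene. The Stk39 stretch is chr2:68472189-68472217 on the minus strand, with the match 227 to 217 bases before the RefSeq start and inside the first exon that GENCODE M21 draws for that gene. The Slc5a3 stretch is chr16:92058150-92058269 on the plus strand, 172 to 53 bases before the RefSeq start of Slc5a3. It is shown without capitals because it was printed for the start beside Mrps6, which RefSeq places 14 bases beyond that of Slc5a3. GENCODE M21 places Mrps6 first, at 92058270, and Slc5a3 at 92058322.
Slc6a12: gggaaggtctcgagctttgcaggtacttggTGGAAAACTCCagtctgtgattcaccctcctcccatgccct
Stk39: cccagcgcgTGGAAACTTCCctggcggcg
Slc5a3: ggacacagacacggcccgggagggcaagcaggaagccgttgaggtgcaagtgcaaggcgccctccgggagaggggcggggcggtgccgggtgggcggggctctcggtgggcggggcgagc
A match is a description of letters and shows no binding, and a window without one says only that the letters are not there.

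At 6 h none of the osmotic and volume genes passed the test against 0 h. In limma's moderated test on log2(FPKM + 1), with Benjamini-Hochberg adjustment over the 10910 genes that averaged 1 FPKM or more, 0 of the 8 genes tested were called at an adjusted p under 0.05, and 0 had an unadjusted p under 0.05. Over all genes tested 60 were called, 26 higher and 34 lower, which is 0.550%. That count over all genes ran from 2 (without 6 h replicate 2) to 115 (without 0 h replicate 3) when 1 library was left out, and 0 of the 8 genes were called in any of these fits. Slc6a12 was below the filter and was not tested by limma. The median difference of the 8 genes was -0.03 on the log2 scale, beside -0.00 over all genes, and their differences ran from -0.20 for Stk39 to 0.12 for Slc5a3. In 2 of the 8, Nfat5 and Sgk1, the 3 libraries of one time all lay beyond those of the other, which was so for 15.3% of all genes tested. Without 0 h replicate 1, Hspa4l and Stk39 also did not overlap, which makes 4. Separation is easier with fewer libraries, and the share over all genes was not computed there, so the 4 cannot be set against 15.3%. In the main fit the 95% interval ran from 0.978-fold to 1.15-fold for Sgk1 and from 0.507-fold to 1.88-fold for Akr1b3. That fit thus bound the response much more closely for the first than for the second. Of the 106 other genes on 12 lists of osmotic, volume and stress genes, 73 were tested, 1 rose (Nr4a1), 0 fell, and 9 had an unadjusted p under 0.05, against 1023 of all 10910.

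**Figure D1:**
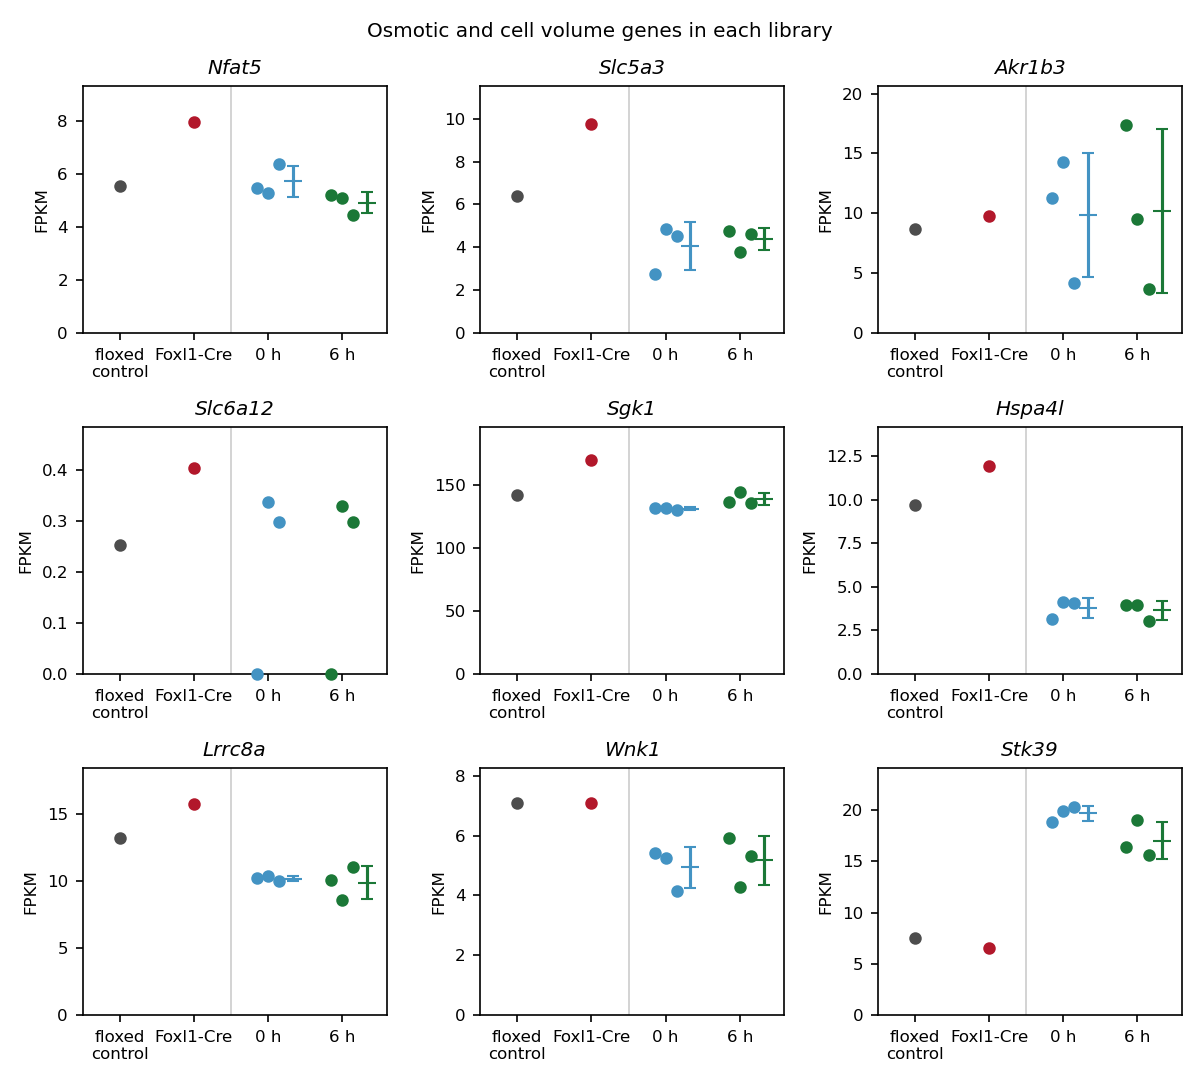
FPKM (linear axis from 0) of the 9 genes in each library: floxed control and Foxl1-Cre (1 library each), 0 h and 6 h (3 each), with bars at mean ± SD of a time where no library is at 0. Hspa4l lies at 9.71 and 11.95 in the genotype libraries and at 3.04 to 4.15 in the timed ones, Stk39 the other way round, and Akr1b3 spreads from 3.65 to 17.4 within the timed libraries.

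In the Foxl1-Cre library most of these genes stood a little higher than in the control library, by less than 1.5-fold on the log2(FPKM + 1) scale. With 1 library per genotype there is no replicate check and no test. Of the 8 genes that averaged 1 FPKM or more over the pair, 0 were past 1.5-fold on the log2(FPKM + 1) scale, where 11.2% of 14949 genes were. In plain FPKM the ratio was 1.52 for Slc5a3 and, at levels near 0, 1.60 for Slc6a12, and with a pseudocount of 0.1 Slc5a3 was past 1.5-fold. By any amount, 6 of the 8 were higher in the Foxl1-Cre library, beside 55.0% of all genes. The same held for 57 of 86 other genes of the osmotic, volume and stress lists. Among genes that averaged 10 FPKM or more it held for 3 of 3 of these genes and for 4387 of 6435 genes in all. Their median log2 difference was 0.24, beside 0.04 over all genes. The Foxl1-Cre library also held the higher epithelial signal: 10 of 11 epithelial markers were at least 1.5-fold higher there, with a median log2 difference of 2.06. The part of epithelial RNA in the differences of these genes was not tested.

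The largest differences among these genes lay between the 2 sets of libraries. Stk39 was at least 2-fold higher in the timed set and Hspa4l at least 2-fold lower, each with no overlap between the 2 genotype and the 6 timed libraries. That is 2 of the 8 genes that averaged 1 FPKM or more over all 8 libraries, where 41.7% of 12043 genes met the same rule, 19.8% higher and 21.9% lower in the timed set. The sets differ in mouse line, treatment and depth of detection, and their tables may have been normalised separately, so their levels are set side by side with no test, and these differences cannot be told apart from one another. The summed markers of epithelium, leukocytes and endothelium were also lower in the timed set. The 10 smooth muscle and pericyte markers summed higher there, at 972.7 to 1071 FPKM against 644.5 and 766.3 in the genotype libraries. By gene, 3 of 9 of these were at least 2-fold lower in the timed set with no overlap and 1 higher. The part of all these markers in the result was not tested.

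**Figure D2:**
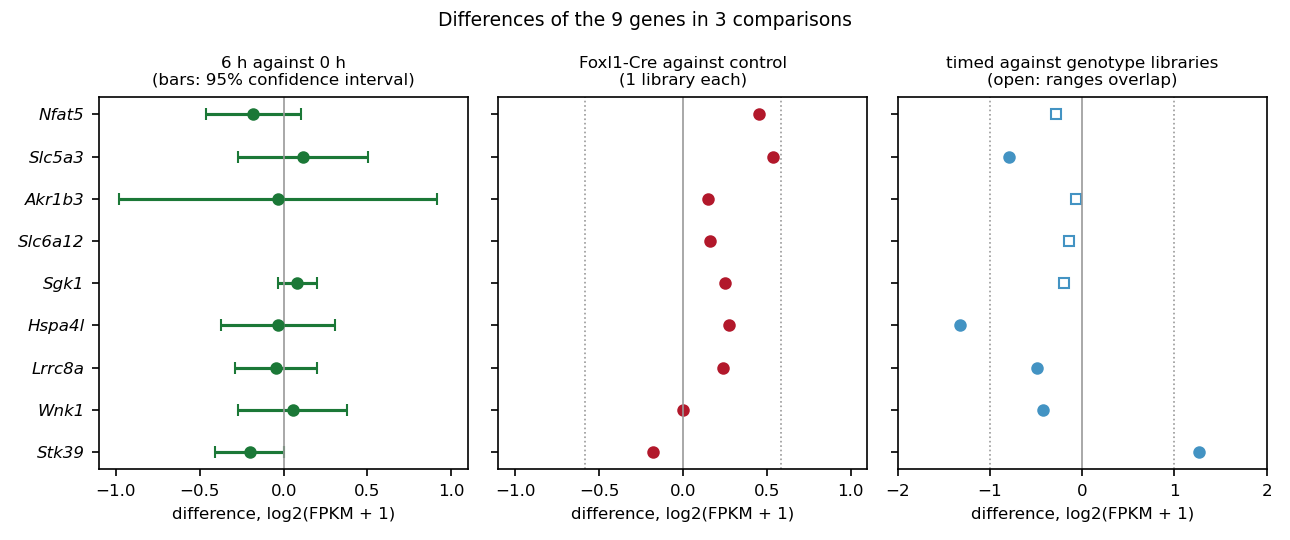
Difference in log2(FPKM + 1) of each gene: 6 h minus 0 h with limma's 95% confidence interval (left; Slc6a12 not tested), Foxl1-Cre minus control, 1 library each, with dotted lines at 1.5-fold (middle), and timed minus genotype libraries with dotted lines at 2-fold and open squares where the ranges overlap (right). The 8 intervals on the left all include 0, no gene passes the dotted lines in the middle, and Stk39 (1.27) and Hspa4l (-1.32) pass them on the right.

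Nfat5 (GENCODE M21, build GRCm38, chr8:107293470-107379517, plus strand), the transcription factor of the tonicity response, stood at 5.49, 5.29 and 6.38 FPKM at 0 h and at 5.22, 5.09 and 4.46 FPKM at 6 h. All 3 libraries at 6 h lay below all 3 at 0 h. The means were 5.72 ± 0.579 and 4.92 ± 0.405 FPKM (SD, n = 3), and the log2 difference of -0.18 (SE 0.13, 95% interval -0.47 to 0.10) had an adjusted p of 0.720 in limma. The exact two-sided permutation test gave p = 0.1, the smallest that 3 against 3 libraries allow. Nfat5 protein is also controlled after transcription, by its entry into the nucleus, which these data do not measure. Nfat5 stood at 5.54 FPKM in the control and 7.98 in the Foxl1-Cre library, a log2 difference of 0.46. The genotype values overlapped the timed range. Of the 4 other NFAT genes, which unlike Nfat5 answer to calcium and calcineurin, 0 passed limma's test at 6 h and 0 had an unadjusted p under 0.05. Nfatc1 was above Nfat5 in every library, at 13.8 and 16.1 FPKM in the genotype libraries and 36.0 to 41.3 in the timed libraries.

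Slc5a3 (chr16:92058322-92087473, plus strand), the sodium and myo-inositol cotransporter, stood at 2.77, 4.87 and 4.51 FPKM at 0 h and at 4.74, 3.79 and 4.63 FPKM at 6 h. A single 0 h library was low and the remaining 5 lay close together, so the times overlapped. The log2 difference was 0.12 (SE 0.18, 95% interval -0.27 to 0.50), with an adjusted p of 0.884 in limma, and it turned to -0.082 without 0 h replicate 1. Between the genotypes Slc5a3 stood at 6.41 FPKM in the control and 9.74 in the Foxl1-Cre library, a ratio of 1.52 in FPKM and 1.45 on the FPKM + 1 scale. The lowest and highest 0 h libraries, which share a label, differed 1.75-fold, more than the genotypes did. The genotype libraries were above all 6 timed libraries, by a mean log2 difference of -0.79 (timed minus genotype), short of 2-fold.

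Mrps6, a subunit of the mitochondrial ribosome, starts beside Slc5a3 on the same strand, and the RefSeq windows of the pair share 286 of 300 bases. Between the sets the 2 genes differed in opposite directions. Mrps6 stood at 35.9 and 38.9 FPKM in the genotype libraries and at 140.7 to 159.6 in the timed libraries, a log2 difference of 1.96. The ratio of Mrps6 to Slc5a3 was 5.61 in the control library, 3.998 in the Foxl1-Cre library and 30.4 to 51.0 in the timed libraries. In GENCODE M21 they share 159 exon bases, which is 1.46% of the exon bases of Slc5a3 and 10.4% of those of Mrps6.

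Slc6a12 (chr6:121343076-121365775, plus strand), the betaine and GABA transporter, was near the bottom of the scale everywhere. It stood at 0.253 FPKM in the control, 0.404 in the Foxl1-Cre library, 0.338 and 0.298 in 2 libraries of 0 h, and 0.329 and 0.298 in 2 libraries of 6 h, and replicate 1 of each time was listed at 0. The values overlapped between times and between sets, and the exact two-sided permutation test between the times gave p = 0.8. The number of reads is unknown, so no detection limit is given. The match to TonE printed above for Slc6a12 therefore sits before a gene with little RNA in these cells. Slc6a13, its relative that carries GABA, stood at 1.74 and 0.816 FPKM in the control and Foxl1-Cre libraries and was listed at 0 in all 6 timed libraries.

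Of the 9 other transporters of osmolytes and urea, 4 were tested at 6 h, 0 passed limma's test and 1 had an unadjusted p under 0.05. Slc6a6, the taurine transporter, stood at 22.8 ± 2.34 FPKM at 0 h and 20.3 ± 1.47 at 6 h (SD, n = 3), with an adjusted p of 0.657 in limma, and at 20.0 and 20.4 FPKM in the genotype libraries. It was thus at a like level in all 8 libraries, and the timed range held both genotype values. Slc38a2, which imports neutral amino acids and is a known target of Nfat5, stood at 70.0 ± 5.40 FPKM at 0 h and 79.7 ± 4.74 at 6 h (SD, n = 3), with an adjusted p of 0.430 in limma. Its unadjusted p in limma was 0.0236. All 3 of its libraries at 6 h lay above all 3 at 0 h, and 15.3% of all genes tested were likewise without overlap, in either direction. Slc44a1, a choline transporter, was at 94.8 and 111 FPKM in the genotype libraries and at 32.4 to 38.3 in the timed libraries.

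Akr1b3 (chr6:34302434-34317478, minus strand), which turns glucose into sorbitol, was the least steady of the genes above 1 FPKM. It stood at 11.2, 14.3 and 4.18 FPKM at 0 h and at 17.4, 9.55 and 3.65 FPKM at 6 h. High and low libraries occurred at both times, and the ranges overlapped. Replicate 3 was the lowest at both times. The log2 difference was -0.03 (SE 0.44, 95% interval -0.98 to 0.91), with an adjusted p of 0.988 in limma. The labels do not say whether replicate numbers pair libraries. With a replicate block in the fit, Akr1b3 had an SE of 0.18 and a 95% interval of -0.44 to 0.37. Its coefficient of variation over the 6 timed libraries was 54.2%, higher than that of 99.7% of the 2144 genes within 1.5-fold of its level, whose median was 11.2%. In the genotype libraries it stood at 8.72 and 9.76 FPKM, inside the timed range.

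Akr1b3 has near-identical copies elsewhere in the genome. Against its longest coding transcript, BLAST found 4 genes in GENCODE M21 outside its locus with at least 95% identity over at least 300 bases, and 0 for the other 8 genes. Of the 4, Gm6644, a processed pseudogene at chr1:55444074-55445024 on the minus strand with 99.7% identity over 951 bases, is the 1 that has a row in the tables. All 951 exon bases of Gm6644 also lie in exons of Gm38056, another of the 4, on the opposite strand. Unstranded reads cannot separate these genes, so the values listed for Gm6644 may include Gm38056. Gm6644 stood at 111.0 and 93.4 FPKM in the genotype libraries, at 117.9, 119.6 and 127.1 at 0 h, and at 102.0, 125.1 and 123.2 at 6 h. Akr1b3 made up 2.88% to 14.5% of the sum of the pair over the 8 libraries. That sum was 129.2, 133.9 and 131.3 FPKM at 0 h and 119.4, 134.7 and 126.9 at 6 h, with a coefficient of variation over the 6 libraries of 4.36%. In the 6 h libraries, where Akr1b3 was highest Gm6644 was lowest. At 0 h that did not hold: Akr1b3 was highest in replicate 2 and Gm6644 lowest in replicate 1. In replicate 3 of 0 h Akr1b3 was lowest and Gm6644 highest. The sum had a log2 difference of -0.05 (SE 0.06) and an adjusted p of 0.847 in limma, as an alternative chosen after the data were seen. No source used here says how the authors' counting shared reads between the copies, so the level of Akr1b3 is uncertain, and the same holds for its place in any order of levels.

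**Figure D3:**
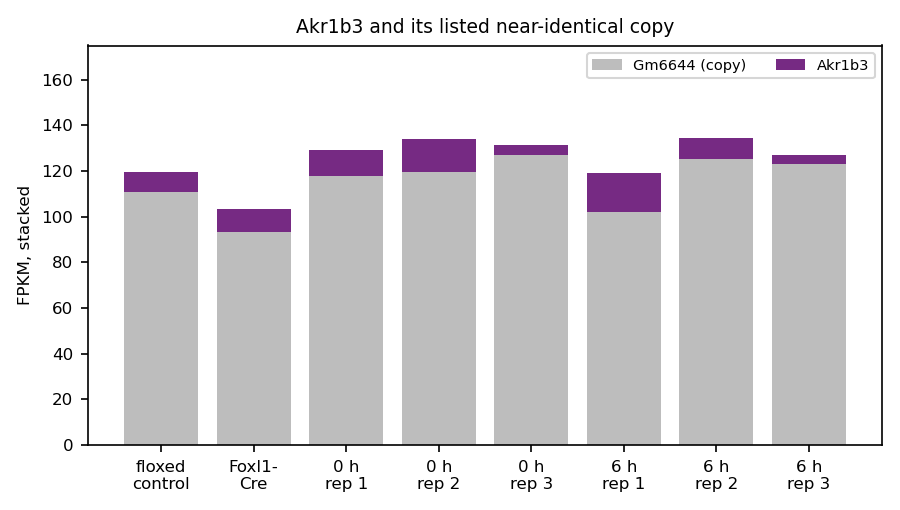
Stacked FPKM (linear axis from 0) of Akr1b3 (purple) on top of its pseudogene copy Gm6644 (grey) in each of the 8 libraries. The purple part runs from 3.65 to 17.4 within the timed libraries, whereas the full bars of those libraries run from 119.4 to 134.7.

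The other 13 enzymes of sorbitol, inositol and glycerophosphocholine gave no call at 6 h either: 10 were tested, 0 passed limma's test and 0 had an unadjusted p under 0.05. Akr1b8, another aldo-keto reductase, stood at 141 ± 9.38 FPKM at 0 h and 140 ± 5.54 at 6 h (SD, n = 3), and at 63.4 and 60.5 FPKM in the genotype libraries. Impa1, which frees inositol from its phosphate, and Gpcpd1, which splits glycerophosphocholine, had adjusted p-values of 0.813 and 0.951 in limma.

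Hspa4l (chr3:40744495-40796103, plus strand), a chaperone of the HSP110 family first known as an osmotic stress protein, stood at 3.14, 4.15 and 4.06 FPKM at 0 h and at 3.98, 3.98 and 3.04 FPKM at 6 h. The times overlapped, with a log2 difference of -0.03 (SE 0.16, 95% interval -0.37 to 0.30) and an adjusted p of 0.963 in limma. It stood at 9.71 FPKM in the control and 11.95 in the Foxl1-Cre library. Both genotype libraries lay above all 6 timed ones, by 2.50-fold on the FPKM + 1 scale. Its closest relative Hspa4 went the other way, at 15.1 and 20.8 FPKM in the genotype libraries and 109 to 124 in the timed libraries. The ratio of Hspa4 to Hspa4l was 1.55 and 1.74 in the genotype libraries and 27.5 to 38.3 in the timed ones. Of the 6 other HSP110 and HSP70 genes, 0 passed limma's test at 6 h and 1 had an unadjusted p under 0.05, which was Hspa8, the constitutive HSP70, at 2415 ± 85.8 FPKM at 0 h and 2186 ± 35.3 at 6 h (SD, n = 3; adjusted p 0.321 in limma). Hspa1a and Hspa1b, the inducible pair, are near-identical, so their split is uncertain; they stood at 398 to 548 and 385 to 509 FPKM in the timed libraries and at 545 to 597 and 614 to 643 FPKM in the genotype libraries.

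Sgk1 (chr10:21882184-21999903, plus strand), a kinase whose transcript answers to cell shrinkage and to glucocorticoids, had the highest level of the 9 genes in each library. It stood at 131.9, 132.1 and 130.1 FPKM at 0 h and at 137.1, 144.7 and 135.8 FPKM at 6 h. All 3 libraries at 6 h lay above all 3 at 0 h, by a small margin. The means were 131.4 ± 1.09 and 139.2 ± 4.83 FPKM (SD, n = 3), the log2 difference was 0.08 (SE 0.05, 95% interval -0.03 to 0.20), and the adjusted p in limma was 0.681. The exact two-sided permutation test gave p = 0.1, the smallest possible here. Sgk1 stood at 142.7 FPKM in the control and 169.9 in the Foxl1-Cre library, a log2 difference of 0.25, and the control value fell inside the timed range.

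The sets differed widely in other genes of stress and hormone responses. Of 10 other glucocorticoid-responsive genes, 7 were at least 2-fold lower in the timed set with no overlap and 2 were higher, beside 21.9% lower and 19.8% higher over all genes, with a median log2 difference of -1.73 (timed minus genotype). Dusp1, a phosphatase, stood at 1773 and 2049 FPKM in the genotype libraries and 94.95 to 120.4 in the timed ones, and Errfi1, an inhibitor of EGF receptor signalling, at 87.7 and 121 against 578 to 636. Of 10 immediate early genes, which answer to stress and to tissue dissociation, 9 were at least 2-fold lower in the timed set with no overlap, and the tenth, Junb, stood at 879 and 838 FPKM in the genotype libraries and 477 to 571 in the timed ones. Among them Fos stood at 3478 and 3923 FPKM against 54.5 to 74.1. At 6 h, 0 of the 8 glucocorticoid-responsive genes tested passed limma's test and 0 had an unadjusted p under 0.05. Among the immediate early genes Nr4a1, a nuclear receptor, rose from 49.4 ± 2.57 to 64.4 ± 4.51 FPKM (SD, n = 3), a log2 difference of 0.37 with an adjusted p of 0.0408 in limma. The call for Nr4a1 did not hold without any single library of the 6, with adjusted p-values in limma from 0.0693 to 0.192. Of 8 other SGK kinases and substrates, 5 were tested, 0 passed and 0 had an unadjusted p under 0.05. Ndrg1, a substrate of Sgk1, stood at 44.5 ± 2.36 FPKM at 0 h and 49.0 ± 2.21 at 6 h (SD, n = 3), with an adjusted p of 0.588 in limma.

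Lrrc8a (chr2:30237715-30263790, plus strand), the required subunit of the volume-regulated anion channel, stood at 10.2, 10.4 and 9.99 FPKM at 0 h and at 10.1, 8.59 and 11.03 FPKM at 6 h. The 0 h libraries lay inside the range of the 6 h ones. The log2 difference was -0.04 (SE 0.11, 95% interval -0.29 to 0.20), with an adjusted p of 0.941 in limma. It stood at 13.2 FPKM in the control and 15.8 in the Foxl1-Cre library, both above all timed libraries, with a log2 difference between the sets of -0.49, short of 2-fold. A readthrough gene, Gm28035, shares 66.2% of the exon bases of Lrrc8a and has no row in the tables, and 1700084E18Rik, on the opposite strand, shares 91 bases, which unstranded reads cannot separate.

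The channel is a mixture of Lrrc8a with other subunits, and 3 of the 4 other subunits, Lrrc8b, Lrrc8c and Lrrc8d, were at least 2-fold higher in the timed set with no overlap, as were 19.8% of all genes. The median log2 difference of the 4 was 1.40. Lrrc8e did not share it, at 2.05 and 1.42 FPKM in the genotype libraries and 1.07 to 2.37 in the timed ones. Lrrc8c stood at 8.55 and 8.34 FPKM in the genotype libraries and 24.2 to 31.3 in the timed libraries. Lrrc8d, the subunit linked to the passage of taurine and other uncharged osmolytes, stood at 3.52 and 4.64 FPKM against 8.21 to 12.4. Lrrc8a made up 45.5% and 51.3% of the summed FPKM of the 5 subunits in the genotype libraries and 14.1% to 18.5% in the timed ones. At 6 h 0 of the 4 passed limma's test and 0 had an unadjusted p under 0.05; Lrrc8d was at 11.5 ± 1.27 FPKM at 0 h and 9.80 ± 1.82 at 6 h (SD, n = 3; adjusted p 0.657 in limma). Lrrc8b stood at 1.73 FPKM in the control and 0.601 in the Foxl1-Cre library, past 1.5-fold at a level near 1 FPKM.

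Wnk1 (chr6:119923969-120038672, minus strand), the kinase at the head of the branch, stood at 5.41, 5.26 and 4.16 FPKM at 0 h and at 5.91, 4.28 and 5.33 FPKM at 6 h. Each time held 2 libraries above 5 FPKM and 1 near 4 FPKM. The log2 difference was 0.05 (SE 0.15, 95% interval -0.27 to 0.38), with an adjusted p of 0.946 in limma. It stood at 7.09 FPKM in the control and 7.08 in the Foxl1-Cre library, above all 6 timed libraries.

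Stk39 (chr2:68210445-68472268, minus strand), the kinase that acts below Wnk1, came nearest to a call in time among the 9 genes. It stood at 18.9, 19.9 and 20.3 FPKM at 0 h and at 16.4, 19.0 and 15.6 FPKM at 6 h. At 6 h 2 libraries lay below all of 0 h, and the highest lay inside its range. The means were 19.7 ± 0.731 and 17.01 ± 1.80 FPKM (SD, n = 3), the log2 difference was -0.20 (SE 0.09, 95% interval -0.41 to 0.00), and in limma the unadjusted p was 0.0524 and the adjusted p 0.543. In the genotype libraries Stk39 stood at 7.51 FPKM in the control and 6.51 with Foxl1-Cre. All 6 timed libraries lay above both, by 2.41-fold on the FPKM + 1 scale. Wnk1, above it in the pathway, stood lower in the timed set, with a log2 difference of -0.42, so the 2 kinases differed in direction between the sets.

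Among the 9 other genes of WNK kinases, SPAK and OSR1 and their adaptors, 5 were tested at 6 h, 0 passed limma's test and 1 had an unadjusted p under 0.05. Oxsr1, which encodes OSR1, the sister kinase of Stk39, stood at 5.69 and 5.10 FPKM in the genotype libraries and 9.81 to 13.4 in the timed ones. The ratio of Stk39 to Oxsr1 was 1.32 and 1.28 in the genotype libraries, 1.71 to 2.07 at 0 h and 1.40 to 1.45 at 6 h. The ratio was thus lower in all 3 libraries of 6 h than in all 3 of 0 h, a comparison chosen after its values were seen and not tested. The adaptors Cab39 and Cab39l were at 20.3 to 21.1 and 12.2 to 15.2 FPKM in the genotype libraries and at 35.3 to 41.5 and 27.9 to 29.3 in the timed libraries. Of 8 ion transporters of volume control, the transport proteins at the end of the branch, 5 were tested at 6 h, 0 passed and 2 had an unadjusted p under 0.05. Slc12a2 (NKCC1), which Stk39 activates, stood at 6.00, 5.59 and 6.52 FPKM at 0 h and at 4.79, 4.75 and 4.18 FPKM at 6 h. The times did not overlap, and the log2 difference of -0.34 had an adjusted p of 0.419 in limma.

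**Figure D4:**
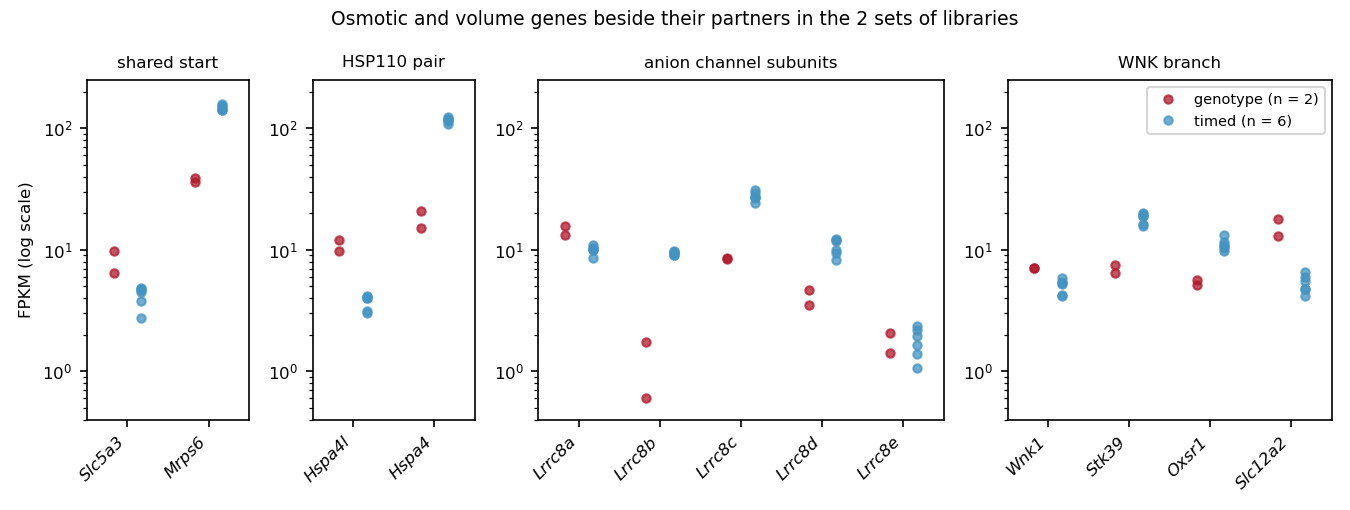
FPKM (log axis) of Slc5a3, Hspa4l, Lrrc8a, Wnk1 and Stk39 beside genes of the same locus, family, channel or branch, for the 2 genotype libraries (red) and the 6 timed libraries (blue), 1 point per library. Slc5a3 and Hspa4l lie lower in the timed libraries while Mrps6 (140.7 to 159.6) and Hspa4 (109 to 124) lie higher, and Lrrc8c (24.2 to 31.3) lies above Lrrc8a (8.59 to 11.03) there.

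Of the 8 sodium pump genes, 5 were tested at 6 h and 0 passed limma's test, with 1 at an unadjusted p under 0.05. Of the 17 water channels, mechanosensitive and volume-linked channels, 7 were tested, 0 passed and 1 had an unadjusted p under 0.05. In the Foxl1-Cre library Aqp8, a water channel of colon epithelium, stood at 9.09 FPKM against 2.80 in the control, beside the higher epithelial markers there, and it was listed at 0 in all 6 timed libraries. Piezo1, a stretch-gated cation channel, stood at 15.6 and 16.9 FPKM in the genotype libraries and at 74.2 to 90.5 in the timed libraries.

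By level, Sgk1 led in both sets, at a mean of 156.3 FPKM in the genotype and 135.3 in the timed libraries, and Slc6a12 was last. Below Sgk1 the genotype libraries had Lrrc8a (14.5), then Hspa4l (10.8), Akr1b3 (9.24), Slc5a3 (8.07), Wnk1 (7.08), Stk39 (7.01) and Nfat5 (6.76), and from Hspa4l down to Nfat5 each gene's range met that of the next. In the timed libraries Stk39 came second with a mean of 18.3 FPKM, with all its libraries above those of Lrrc8a, while its range met that of Akr1b3. Lrrc8a (10.05), Akr1b3 (10.04), Nfat5 (5.32), Wnk1 (5.06), Slc5a3 (4.22) and Hspa4l (3.73) followed, each overlapping the next. Hspa4l thus ranked 3 of 9 in the genotype set and 8 of 9 in the timed set, and Stk39 ranked 7 and 2.

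Within the 6 timed libraries the genes of at least 10 FPKM whose log2(FPKM + 1) followed each gene most closely were listed, out of 6309. All share the same 6 libraries, and each r is the top of many, so the values are a description. For Nfat5 they were Prkcd (Pearson r = 0.996) and Tax1bp3 (0.989), for Slc5a3 Napg (0.994) and Csgalnact2 (0.988), and for Akr1b3 Tmem160 (0.960) and Flot1 (0.958). For Sgk1 they were Hacd3 (0.988) and Tcof1 (0.982), for Hspa4l Eif3a (0.975) and Coa5 (0.973), and for Lrrc8a Chka (0.985) and Tgif1 (0.978). For Wnk1 they were Cmtm3 (0.989) and Fkbp8 (0.981), and for Stk39 Trabd (0.989) and Ddx27 (0.982).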

How the data were processed

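RNA was sequenced from 8 libraries of sorted mouse cells. The kits, per the labels' protocols, were SMART-Seq HT for cDNA, which does not mark strand, and Nextera XT for libraries. The authors deposited 1 table per library with FPKM values, per the file headers. Cuffdiff 2.2.1, TopHat2 2.1.1, SAMtools 0.1.18 and Bowtie2 2.2.8 are named, with the build mm10, in the submitters' processing notes. The annotation, the handling of reads with several matches and any scaling of libraries are not stated there or in the labels. Total FPKM ran from 513001 to 579004 per library. The read depth is unknown: among low values at most 24.0% of genes sat at a shared step between a pair of libraries, so whole reads were not recovered, and no counting interval is given.

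Groups were taken from the labels. For the time comparison (3 against 3 libraries), limma 3.58.1 (R 4.3.3, prior variance with a trend on intensity) was fitted to log2(FPKM + 1) of the genes that averaged 1 FPKM or more over the 6 libraries. P-values were adjusted over all genes tested by the method of Benjamini and Hochberg, with a threshold of 0.05. On this scale low genes show less than their full log2 change. Single genes also had an exact two-sided permutation test. The genotype comparison (1 against 1) has no test and counts genes past 1.5-fold. The library sets were compared by mean log2(FPKM + 1), counting genes at least 2-fold apart with no overlap. The limma fit was tested on simulated data with planted changes. The labels do not say whether replicate numbers pair libraries of the 2 times, and the main fit held no pairing.

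The 9 genes and the lists were chosen with earlier results of these data known. Named besides them were Mrps6, the 3 genes of the highest mean FPKM of each of 12 lists and any past the time threshold, the 2 genes most alike to each gene over the timed libraries, and markers of the sorted cells. Not every gene that the rule takes is printed, and 1 result is not reported here. Oxsr1, Hspa4, Lrrc8b, Slc6a13, Lrrc8e, Krt8, Aqp8 and Gm6644 were named after their values were seen. Positions and copies come from GENCODE M21, searched with blastn 2.17.0. Promoters come from RefSeq, build GRCm38.p6. Alternatives were the pseudocount, the filter, median ratio scaling, no trend, a replicate block and leaving out each library.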

Additional observations from a re-analysis of the deposited data

How the results depend on the processing

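Of the 9 genes, 0 passed limma's test between the times under any alternative. Over 93 combinations of a gene and an alternative, 83 kept the direction, the smallest adjusted p was 0.469, and 10 turned the sign, all with 1 library left out, where the log2 difference ran from -0.082 to 0.24 for Slc5a3, -0.50 to 0.49 for Akr1b3, -0.14 to 0.066 for Hspa4l, -0.12 to 0.045 for Lrrc8a and -0.046 to 0.16 for Wnk1. The count over all genes, 60, was 0 with no filter on low values (1322 genes at an unadjusted p under 0.05) and 0 with no trend (960), 23 with the replicate block (14 higher, 9 lower), and 2 to 115 with 1 library left out. It was 6 without 0 h replicate 1, 3 without 0 h replicate 2, 115 without 0 h replicate 3, 4 without 6 h replicate 1 and 2 without 6 h replicate 2. Libraries of the same number did not deviate together over all genes (correlations of -0.04, 0.01 and -0.03), which cannot exclude a shared source. The labels do not say whether the numbers pair libraries, so the 23 calls with the block are given only as an alternative. Among the 9 genes, the count without overlap between the times was 2 to 4 with 1 library left out. The share over all genes was not computed for these smaller sets. The call for Nr4a1 held under 3 of 12 alternatives, with adjusted p-values from 0.0151 to 0.345. The cause of these shifts was not tested.

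In the genotype comparison 2608 genes were past 1.5-fold with a pseudocount of 0.1, beside 1668, and 1 of the 9 genes, Slc5a3, was then among them; 202 were with a filter at 10 FPKM, which leaves fewer genes. Between the library sets that filter left 2887 of 6632 genes called, 2027 higher and 860 lower in the timed set. The median over all genes was 0.51 on the log2 scale. Only 3 of the 9 genes passed that filter, and 1 of the 3, Stk39, was called. Hspa4l fell below the filter, with its log2 difference unchanged at -1.32. With any 1 timed library left out, 2 of the 8 genes tested were called, beside 5155 to 5171 of 12168 to 12197 genes. Without the control library the log2 difference of Slc5a3 reached -1.06, past 2-fold. Depth is unknown, so what it limits cannot be given per gene.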
